A study of Mus musculus with 4 samples.

Results

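The genes of mitosis and the spindle are those that drive a cell from G2 through the separation of its chromosomes to cytokinesis. A set of 50 such mouse genes was read on 4 two-colour Agilent arrays of C2C12 myoblasts, and its probes were found through their RefSeq accessions. All 50 genes had at least 1 tested probe, among 19751 named genes on the array and 13712 tested ones. C2C12 is a single mouse myogenic line that derives from satellite cells of thigh muscle, so the values describe 1 line in culture. Of the 4 palmitate cultures, each received 0.1 mmol/l of this saturated fatty acid, complexed to albumin, for 48 h while proliferating. The 4 control cultures received ethanol and albumin alone. By the protocol both media held 5% fetal bovine serum, whereas the labels of the control channel give a medium with 10% HS, and this difference could not be settled. Each array held 1 palmitate culture labelled with cyanine-5 and 1 control culture labelled with cyanine-3. The orientation of the dyes was never swapped, and an effect of palmitate and an effect of the dye on a probe cannot be told apart. All values below are log2 ratios of palmitate over control unless stated otherwise, and a gene is represented by its brightest tested probe.

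Entry into mitosis is driven by Cdk1 bound to cyclin A or B, which the Cdc25 phosphatases activate and the Polo-like and Aurora kinases assist. Kinesins and microtubule-binding proteins then build the bipolar spindle, kinetochores attach the chromosomes to it, and the spindle checkpoint holds back the anaphase-promoting complex until every chromosome is attached. That complex then destroys securin (Pttg1) and cyclin B, separase (Espl1) opens the cohesin rings, and cytokinesis follows. Most of these transcripts rise together in G2 and M under the factors B-Myb (Mybl2) and Foxm1, and their amount in a culture follows the share of cycling cells. In RNA from a whole culture, fewer cells in mitosis and less RNA per cell cannot be told apart.

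The promoters of many such genes carry a cell cycle genes homology region (CHR, searched as TTTGAA or TTCGAA) and CCAAT boxes, the element that NF-Y binds. The 150 bases before the RefSeq start sites (GRCm38.p6) were searched on both strands in the 42 members with an entry. A CHR lay in 15 of the 42 (35.7%), against 3027 of 27025 genes (11.2%) over windows of the same length. A CCAAT box lay in 29 of the 42, against 27.7% of all genes, and both motifs in 13 (31.0%), against 2.85%. The windows shown are those of the 4 members with the lowest unadjusted p that have an entry (Kif4, Pttg1, Hmmr and Kif11) and of Cdk1 and the cyclin B genes that activate it. Each reads 5′ to 3′ along the gene's strand up to the base before the start, and capitals mark the motifs on either strand (ATTGG is CCAAT and TTCAAA is TTTGAA on the opposite strand). A match is a description of the letters and not a site of binding.
Kif11, chr19:37376232-37376381, plus strand: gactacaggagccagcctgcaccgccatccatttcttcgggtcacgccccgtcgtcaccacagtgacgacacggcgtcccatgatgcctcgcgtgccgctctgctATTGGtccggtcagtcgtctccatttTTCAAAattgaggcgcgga
Kif4, chrX:100625915-100626064, plus strand: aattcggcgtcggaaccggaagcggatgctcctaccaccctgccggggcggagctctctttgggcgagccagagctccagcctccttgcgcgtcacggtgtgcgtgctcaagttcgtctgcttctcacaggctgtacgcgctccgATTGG
Hmmr, chr11:40733438-40733587, minus strand: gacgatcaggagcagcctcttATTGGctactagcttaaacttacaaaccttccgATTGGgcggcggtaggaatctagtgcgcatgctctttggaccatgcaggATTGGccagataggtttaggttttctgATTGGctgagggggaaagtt
Pttg1, chr11:43425982-43426131, minus strand: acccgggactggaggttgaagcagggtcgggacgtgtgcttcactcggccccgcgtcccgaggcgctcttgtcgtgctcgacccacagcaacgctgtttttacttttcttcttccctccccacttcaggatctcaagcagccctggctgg
Cdk1, chr10:69352913-69353062, minus strand: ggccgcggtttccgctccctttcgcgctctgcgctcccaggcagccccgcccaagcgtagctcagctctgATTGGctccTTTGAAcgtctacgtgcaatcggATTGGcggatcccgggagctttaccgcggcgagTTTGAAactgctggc
Ccnb1, chr13:100786487-100786636, minus strand: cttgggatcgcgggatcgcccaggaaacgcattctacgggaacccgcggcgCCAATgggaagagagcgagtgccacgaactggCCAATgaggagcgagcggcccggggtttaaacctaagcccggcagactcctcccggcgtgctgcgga
Ccnb2, chr9:70421555-70421704, minus strand: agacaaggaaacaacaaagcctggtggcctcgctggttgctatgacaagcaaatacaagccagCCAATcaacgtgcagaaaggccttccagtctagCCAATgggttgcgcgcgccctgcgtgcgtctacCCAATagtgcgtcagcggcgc
The window of Cdk1 held 2 CHR motifs and 2 CCAAT boxes, that of Kif11 had 1 of each, and the windows of Hmmr, Ccnb2, Ccnb1 and Kif4 held 4, 3, 2 and 1 CCAAT boxes and no CHR. In the window of Pttg1 neither motif was found. Among the members with a mean ratio above 0, a CHR lay in 8 of 26 windows and a CCAAT box in 16 of 26. Among those below 0, the counts were 7 of 16 and 13 of 16. These sides depend on the normalization of the dyes. Cdk1, Cdc20, Prc1 and Ncapd2, which held a CHR and lay below 0, lay above 0 relative to all probes when each array was centred on its median.

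Over all probes, 61.9 to 70.7% were well above background in the palmitate channel and 57.6 to 64.0% in the control channel. All 7 myoblast markers, Myod1 and Desmin among them, were above background on every array in both channels, while of markers of other cell types 3 of 5 adipocyte, 2 of 4 endothelial and 0 of 3 macrophage genes were never above it. Fabp4, Csf1r, Pecam1 and Kdr were above it on all 4 arrays in both channels, and Kdr, an endothelial receptor, had ratios of 0.98, -1.33, -1.09 and -0.93 on replicates 1 to 4 (adjusted p = 0.385, and 0.00273 without replicate 1). The array of replicate 1 stood apart from the others. Over the 24169 tested probes its ratios correlated at r = -0.08 with the averaged ratios of the other arrays, which among themselves correlated at 0.68 to 0.77. The probe of 28S ribosomal RNA (Rn28s1) had a log2 ratio of 1.42 on replicate 1 and of -2.49, -2.14 and -3.35 on replicates 2, 3 and 4. Whatever set replicate 1 apart was not tested, and the counts of members past the adjusted p are given below with and without it.

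Palmitate and control cultures did not differ past the test in any of the 50 genes. With limma over 4 arrays and Benjamini-Hochberg adjustment over all tested probes, 0 of the 50 members and 0% of the 13712 genes passed an adjusted p of 0.05 with a fold of at least 1.6, and the lowest adjusted p of a member was 0.118. At an unadjusted p under 0.05, 5 of the 50 members were lower in palmitate cultures, against 13.3% of all genes, and 10 were higher, against 10.8% of all genes. On all 4 arrays 7 members lay below 0, against 16.7% of all genes, and 9 lay above 0, against 15.6%. The median of the 50 mean ratios was 0.045, against 0.0013 over all tested genes, and no member reached a mean fold of 1.6. The members did not move as a block. The 7 mitotic kinesins had a mean ratio above 0 in 7 of 7 cases, against 6879 of the 13712 tested genes. Other kinesins, such as Kif14 and Kif15, were listed apart with other mitotic genes and are not given singly. The 6 genes of cyclins, Cdk1 and its phosphatases lay below 0 in 6 of 6, against 49.8% of all tested genes. However, Cdk1 and Cdc25c lay above 0 when each array was centred on its median and not normalized by loess. Ccnb1 lay above 0 in the mean of its 3 probes, 2 of which had ratios above 0 on all 4 arrays. Median centring moved the median of all probes by 0.17, and relative to that shift 10 members that lay below 0 with loess lay above it (Cdk1, Cdc25c, Cdc20, Plk1, Aurka, Birc5, Spc25, Prc1, Mybl2 and Ncapd2). The same 10 did so without dye normalization, where the shift was 0.98. Signs and ratios given below under median centring are relative to its shift of 0.17, also in the captions.

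**Figure D1:**
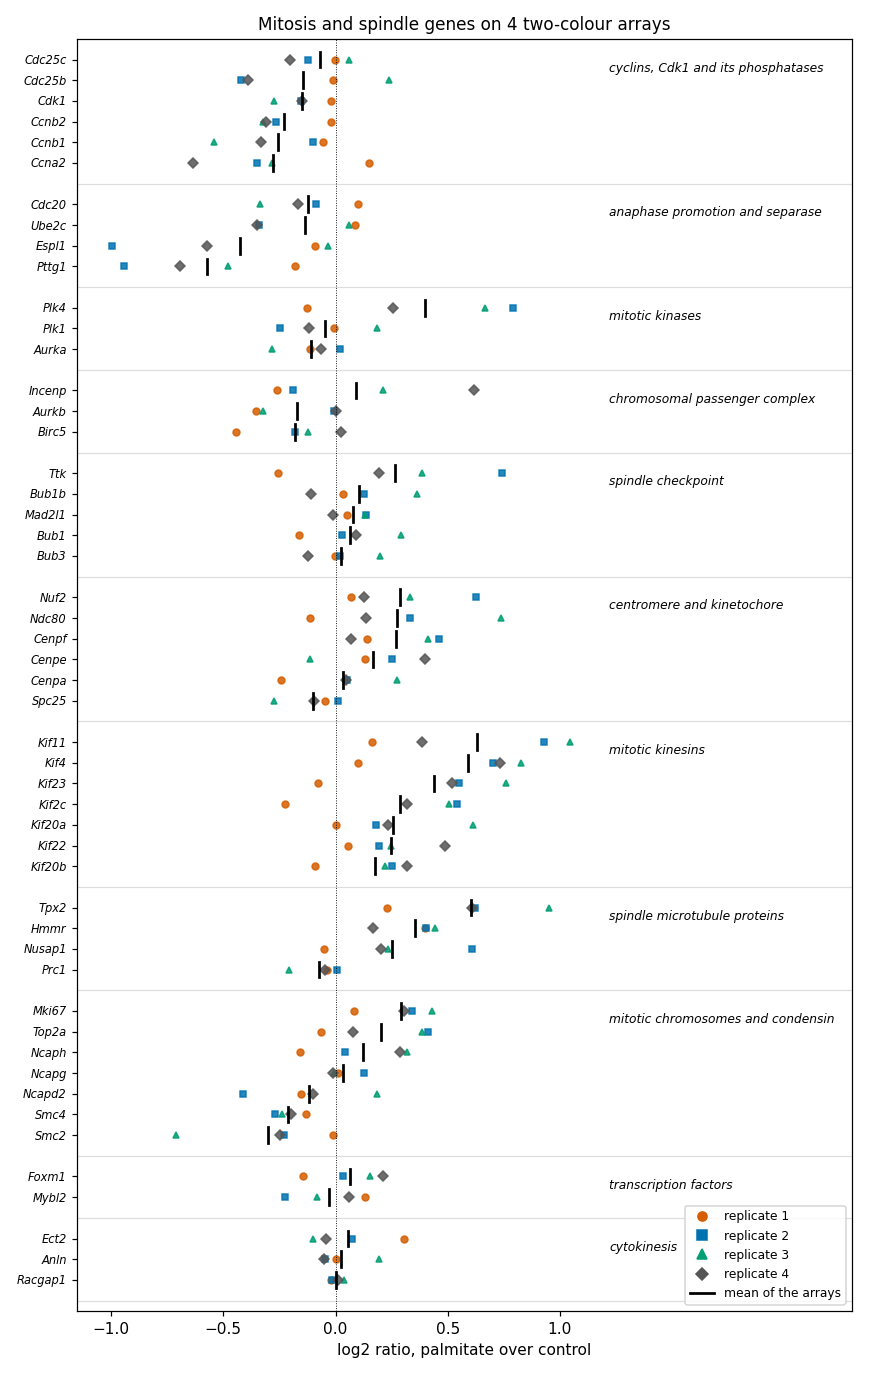
Log2 ratios between palmitate and control (x axis, palmitate over control) for each of the 50 genes (y axis), grouped by role, with a point for each of the 4 arrays and a bar for their mean. The 7 kinesins lay above 0 on average and the cyclins, Cdk1 and the phosphatases below 0 (Cdk1 and Cdc25c above 0 under median centring, Ccnb1 in the mean of its probes), and the points of replicate 1 lay 0.12 from 0 on average, against 0.24 to 0.34 on the other arrays.

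Replicate 1 was singled out by its ratios in these same data, so p-values without it come from arrays chosen for their agreement. Without replicate 1, 2 members were lower past an adjusted p of 0.05, against 9.84% of all genes, and 8 were higher, against 8.76% of all genes. The lower ones were Pttg1 and Ccna2, and the higher ones Tpx2, Kif4, Kif11, Kif23, Kif2c, Mki67, Plk4 and Ttk. Hmmr, Ccnb2, Kif22, Nuf2, Espl1, Ccnb1, Cenpf and Smc4, at an unadjusted p under 0.05 with 4 arrays, did not pass. Their adjusted p without replicate 1 was 0.0545, 0.0548, 0.0724, 0.0736, 0.0747, 0.0841, 0.0879 and 0.102, in that order. With the fold of 1.6 as well, Pttg1 alone was left below 0, against 2.84% of all genes, and Tpx2, Kif4 and Kif11 above 0, against 2.01%. No member passed without replicate 2, 3 or 4, where the lowest adjusted p of a member was 0.440, 0.338 and 0.308. With all 4 arrays, 4 of these genes passed the adjusted p where probes were limited to a coefficient of variation under 50% in each channel (Tpx2 at 0.0310, Kif4 at 0.0355, Pttg1 at 0.0359 and Kif11 at 0.0401). Under that limit, which is set on the arrays tested, 1 of 47 members was lower, against 5.37% of all genes, and 3 were higher, against 3.55%.

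The mitotic kinesins, motors that walk along or take apart spindle microtubules, included 2 of the 3 genes with the highest ratios of the set. Kif11 (Eg5), which pushes the spindle poles apart, had ratios of 0.16, 0.93, 1.05 and 0.39 on replicates 1, 2, 3 and 4. All 4 were above 0 and replicates 2 and 3 were the highest, while palmitate signals between 9.63 and 10.39 overlapped control signals between 9.23 and 9.81 (normalized log2 signal). Its mean of 0.63 ± 0.42 (SD, n = 4 arrays) was 1.55-fold higher in palmitate cultures, with a 95% interval of 0.24 to 1.02 and an unadjusted p of 0.00735 (adjusted p = 0.130). Kif4, a chromosome-bound kinesin that shapes the central spindle, had 0.10, 0.70, 0.83 and 0.73, a mean of 0.59 ± 0.33 (1.51-fold, unadjusted p = 0.00410, adjusted p = 0.122). Here replicates 2 to 4 lay close together and replicate 1 far below them. Without replicate 1 the mean of Kif4 was 0.75 (adjusted p = 0.00473) and that of Kif11 0.79 (adjusted p = 0.0138).

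Kif23, the motor subunit of centralspindlin in the midzone, had ratios of -0.079, 0.55, 0.76 and 0.52, with a mean of 0.44 ± 0.36 (unadjusted p = 0.0212, adjusted p = 0.167). Replicate 1 was the single array below 0, and without it the mean was 0.61 (adjusted p = 0.0100). For Kif22, which moves chromosome arms, the ratios were 0.054, 0.19, 0.25 and 0.49 (mean 0.25 ± 0.18, unadjusted p = 0.0405). Its palmitate signals of 14.47 to 14.82 lay above all control signals of 14.33 to 14.42. Kif2c (MCAK), which depolymerises microtubule ends, had -0.23, 0.54, 0.51 and 0.32 (mean 0.29 ± 0.36), and without replicate 1 a mean of 0.46 with an adjusted p of 0.0207. Kif20a and Kif20b, both needed late in cytokinesis, averaged 0.26 ± 0.26 and 0.17 ± 0.18. On replicate 1 the 7 kinesins had a median of 0.0015, against 0.54, 0.61 and 0.39 on replicates 2, 3 and 4.

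Among the proteins that bind and bundle spindle microtubules, 3 of 4 had a mean ratio above 0, against 6879 of the 13712 tested genes. Tpx2, which activates Aurora A and nucleates microtubules near chromosomes, had ratios of 0.23, 0.62, 0.95 and 0.61. All arrays were above 0, with replicate 1 the lowest, and its mean of 0.60 ± 0.30 (1.52-fold, 95% interval 0.30 to 0.90) had the lowest unadjusted p of the 50 genes, 0.00251 (adjusted p = 0.118; 0.00788 without replicate 1). Hmmr, a spindle pole protein that is also the hyaluronan-mediated motility receptor, had 0.40, 0.40, 0.44 and 0.17, with a mean of 0.35 ± 0.12 (unadjusted p = 0.00507, adjusted p = 0.124). Its ratio on replicate 1 was the highest of the 50 genes there, and its palmitate signals of 11.59 to 11.85 lay above the control signals of 11.26 to 11.45. Without replicate 1 its adjusted p was 0.0545. Nusap1, which bundles microtubules around chromosomes, averaged 0.25 ± 0.27, with -0.049 on replicate 1 and 0.61 on replicate 2. Prc1, which crosslinks antiparallel microtubules in the midzone, averaged -0.071 ± 0.095 and lay above 0 under median centring.

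**Figure D2:**
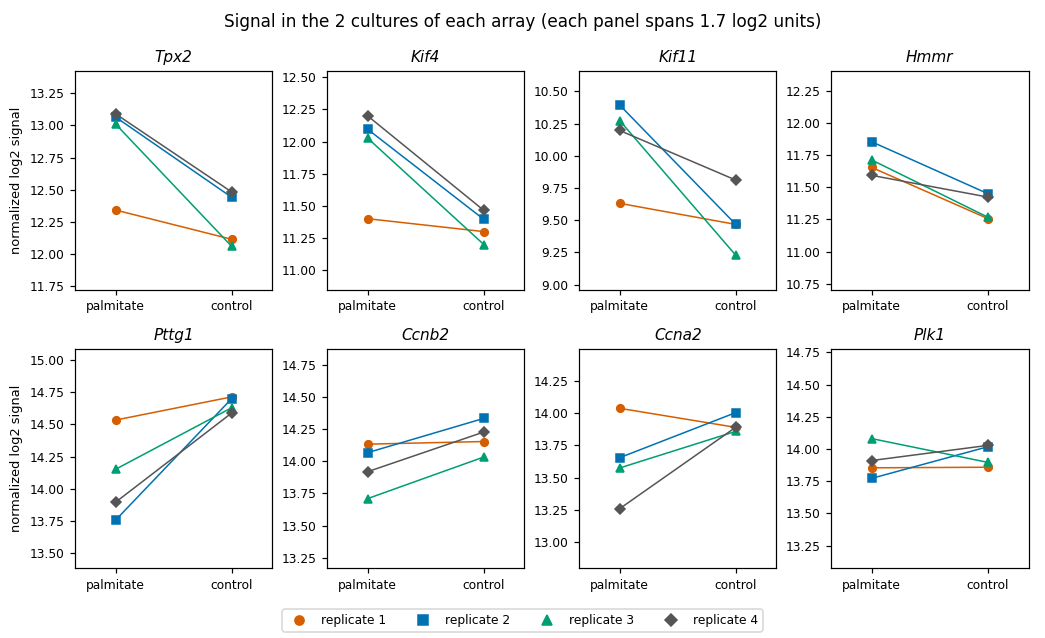
Normalized log2 signal (y axis) in the palmitate and the control culture of each array (x axis), with a line for each of the 4 arrays, for 8 genes. Palmitate and control signals of Hmmr and Pttg1 did not overlap, while those of the other 6 genes overlapped.

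Genes of the centromere and kinetochore had a mean ratio above 0 in 5 of 6 cases, against 6879 of the 13712 tested genes, with a median of 0.22. Cenpf, which links kinetochores to dynein, had ratios of 0.14, 0.46, 0.41 and 0.070 (mean 0.27 ± 0.19, unadjusted p = 0.0320). Its palmitate signals of 8.22 to 8.58 lay just above the control signals of 8.09 to 8.15. Nuf2 and Ndc80, which with Spc25 form the complex that grips microtubule ends, averaged 0.29 ± 0.25 (unadjusted p = 0.0410) and 0.27 ± 0.36. Spc25 did not share that side and averaged -0.10 ± 0.12 with loess and 0.093 relative to the shift of median centring. A second probe of Nuf2 was above background on 2 palmitate arrays and 0 control arrays and was not tested. Cenpe, a kinetochore kinesin, averaged 0.17 ± 0.22, with -0.11 on replicate 3 against 0.40 on replicate 4. Cenpa, the histone H3 variant of centromeres, averaged 0.032 ± 0.21.

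The 5 genes of the spindle checkpoint all had a mean ratio above 0, against 6879 of the 13712 tested genes. Of the 5, 0 passed an unadjusted p of 0.05, against 24.2% of all tested genes in either direction. Ttk (Mps1), the kinase that starts the checkpoint signal, had -0.25, 0.74, 0.38 and 0.19 on the 4 arrays (mean 0.27 ± 0.42, unadjusted p = 0.145). It had one of the widest spreads of the set, and without replicate 1 it lay just inside the threshold (mean 0.44, adjusted p = 0.0495). Bub1b (BubR1) averaged 0.10 ± 0.20, Mad2l1, which it joins in the inhibitor of the anaphase-promoting complex, 0.077 ± 0.069, the kinase Bub1 0.063 ± 0.19, and its partner Bub3 0.024 ± 0.13. Without replicate 3 the means of Bub1 and Bub3 were below 0.

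The mitotic kinases and the chromosomal passenger complex were mixed. Plk4, the kinase that starts centriole duplication, had -0.13, 0.79, 0.67 and 0.26 (mean 0.40 ± 0.42, unadjusted p = 0.0460, adjusted p = 0.221). It was below 0 on replicate 1 alone, and without that array its mean was 0.57 (adjusted p = 0.0230). Plk1, the Polo-like kinase of mitotic entry and exit, averaged -0.046 ± 0.18 and Aurka, the spindle pole kinase, -0.11 ± 0.13, and both lay above 0 under median centring. In the passenger complex, which corrects faulty attachments, the kinase Aurkb averaged -0.17 ± 0.20, and the scaffold Incenp 0.093 ± 0.41 with ratios of -0.26, -0.19, 0.21 and 0.62. Birc5 (survivin) averaged -0.18 ± 0.19 on its brightest probe, where replicate 1 at -0.44 was the lowest array, and 0.048 under median centring. For these genes no array order or side was shared.

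Cyclins, Cdk1 and its phosphatases had, on their brightest probes, a median of -0.19, with medians of -0.014, -0.21, -0.28 and -0.32 on replicates 1, 2, 3 and 4. Ccnb2 (cyclin B2) had ratios of -0.020, -0.27, -0.32 and -0.31, with a mean of -0.23 ± 0.14 (unadjusted p = 0.0372, adjusted p = 0.204, 0.0548 without replicate 1). Its ratios on replicates 2 to 4 agreed closely and replicate 1 was near 0, but palmitate signals of 13.71 to 14.13 overlapped control signals of 14.03 to 14.33. Ccna2 (cyclin A2), which acts from S phase to early mitosis, had 0.15, -0.35, -0.28 and -0.63 (mean -0.28 ± 0.32, unadjusted p = 0.0767). Replicate 1 was the single array above 0, and without it the mean was -0.42 (adjusted p = 0.0342).

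Ccnb1 (cyclin B1) had -0.057, -0.099, -0.54 and -0.33 on its brightest probe (mean -0.26 ± 0.22, unadjusted p = 0.0491, adjusted p = 0.227). All 4 arrays were below 0, but its other probes gave means of 0.32 and 0.32, both above 0 on all 4 arrays (unadjusted p = 0.0344 and 0.0408), so the direction of Ccnb1 depends on the probe. Cdk1, the kinase that these cyclins activate, had -0.018, -0.15, -0.27 and -0.15 (mean -0.15 ± 0.10). It was below 0 on every array with loess and at 0.0035 under median centring. Of the phosphatases that activate Cdk1, Cdc25b averaged -0.15 ± 0.32 and Cdc25c -0.067 ± 0.12, with Cdc25c at 0.044 under median centring.

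The 2 lowest ratios of the set belonged to genes of anaphase. Pttg1 (securin), the inhibitor of separase, had -0.18, -0.94, -0.48 and -0.69, with a mean of -0.57 ± 0.32 (1.49-fold lower in palmitate cultures, 95% interval -0.90 to -0.25, unadjusted p = 0.00439, adjusted p = 0.123). All arrays were below 0, and its palmitate signals of 13.76 to 14.53 lay below all control signals of 14.59 to 14.71. It was the only member with separate signals in this direction, against 8.47% of all genes, while Hmmr, Mki67, Cenpf and Kif22 were separate in the other, against 5.4%. Without replicate 1 the mean of Pttg1 was -0.71 (adjusted p = 0.0106). Its second probe gave -0.58, -0.48, 0.0062 and -0.16, a mean of -0.30 ± 0.27 on the same side.

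Espl1 (separase), the protease that securin holds inactive, had -0.090, -0.996, -0.033 and -0.57 (mean -0.42 ± 0.45, unadjusted p = 0.0465, adjusted p = 0.222). This was the widest spread of the 50 genes, with replicates 2 and 4 low and replicates 1 and 3 near 0. The anaphase-promoting complex is represented by its activator Cdc20 and its ubiquitin-conjugating enzyme Ube2c, which averaged -0.12 ± 0.18 and -0.14 ± 0.24. Both had a ratio above 0 on replicate 1 (0.0995 and 0.086), and Cdc20 was at 0.12 under median centring. The 4 genes of this group were all below 0 with loess, against 49.8% of all tested genes. Relative to the shift of median centring, 3 of them, Pttg1, Espl1 and Ube2c, were below 0. Ube2c was near that limit, at 0.97 without dye normalization, where the shift was 0.98.

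Among genes of the mitotic chromosome, Mki67 (Ki-67), which coats chromosomes and marks cycling cells, had ratios of 0.083, 0.34, 0.43 and 0.30. All 4 were above 0, and palmitate signals of 15.22 to 15.39 lay above control signals of 14.93 to 15.14. Its mean of 0.29 ± 0.15 (unadjusted p = 0.0157, adjusted p = 0.151) was 0.36 without replicate 1 (adjusted p = 0.0349), and a second probe averaged 0.18 ± 0.13. Top2a, which untangles sister DNA, averaged 0.20 ± 0.23. The condensin subunits that compact chromosomes did not share a side. Their ATPase core Smc4 had -0.13, -0.27, -0.24 and -0.20, a mean of -0.21 ± 0.060 (unadjusted p = 0.0301, adjusted p = 0.188), and its partner Smc2 had -0.013, -0.23, -0.71 and -0.25 (mean -0.30 ± 0.29). Both were below 0 on all 4 arrays, and Smc4 had the narrowest spread of the members at an unadjusted p under 0.05. Of the condensin I subunits that join this core, Ncapd2 averaged -0.12 ± 0.25, Ncapg 0.032 ± 0.064 and Ncaph 0.12 ± 0.23, with Ncapd2 at 0.050 under median centring.

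Of the transcription factors of the mitotic programme, Foxm1 averaged 0.063 ± 0.16 and Mybl2 -0.030 ± 0.16 on the brightest probe, with Mybl2 at 0.10 under median centring. A second probe of Mybl2 had -0.32, -0.32, -0.32 and -0.11, below 0 on all 4 arrays (mean -0.27 ± 0.10, unadjusted p = 0.0144, adjusted p = 0.148). The 3 cytokinesis genes had a mean absolute ratio of 0.029, against 0.21 over the 50 members. Racgap1, the GTPase-activating partner of Kif23 in centralspindlin, averaged 0.0038 ± 0.027 with ratios of -0.020, -0.015, 0.039 and 0.011, the narrowest spread of the set. Anln, which anchors actin and septins in the furrow, averaged 0.024 ± 0.11, and Ect2, which activates RhoA there, 0.058 ± 0.18 with 0.30 on replicate 1 as its highest value. Racgap1 at 0.0038 and Kif23 at 0.44 are subunits of 1 complex with different ratios, but this difference was not tested.

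**Figure D3:**
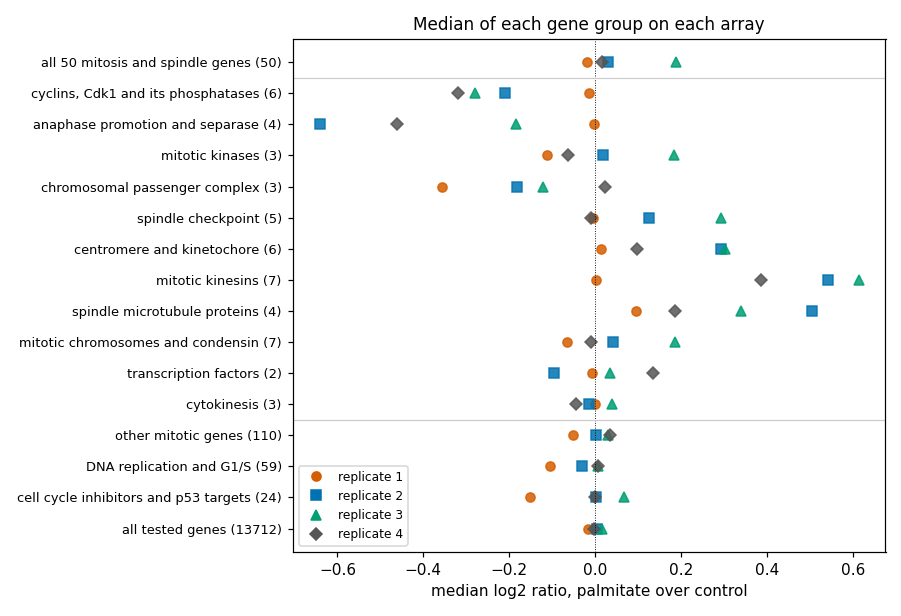
Median over each group of the log2 ratios between palmitate and control (x axis) for groups of genes (y axis, number of tested genes in parentheses), with a point for each of the 4 arrays. On replicates 2 to 4 the cyclin and anaphase groups lay below 0 and the kinesin and spindle microtubule groups above 0. Replicate 1 was nearer to 0 in these 4 groups. Over 4 arrays, 4 of 6 cyclin and 3 of 4 anaphase genes were below 0 relative to the shift of 0.17 under median centring. With the mean of all probes these counts were 5 of 6 and 4 of 4.

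Of the 50 genes 13 had several tested probes, and in 7 of them (Birc5, Ccnb1, Cdk1, Foxm1, Mad2l1, Racgap1 and Ube2c) the means differed in sign. For Cdk1 the 3 probes averaged -0.15, -0.041 and 0.16, and for Birc5 -0.18, 0.030 and 0.17, the last over 3 arrays. Ube2c gave -0.14 and 0.080, Foxm1 0.063 and -0.11, Mad2l1 0.077, -0.030 and -0.045, and Racgap1 0.0038 and -0.018. None of these reached an unadjusted p of 0.05, unlike the probes of Ccnb1. Probes of Pttg1, Mki67, Kif2c, Tpx2, Incenp and Mybl2 had means of the same sign, although the second probe of Tpx2 averaged 0.16 ± 0.30 against 0.60 on the first.

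**Figure D4:**
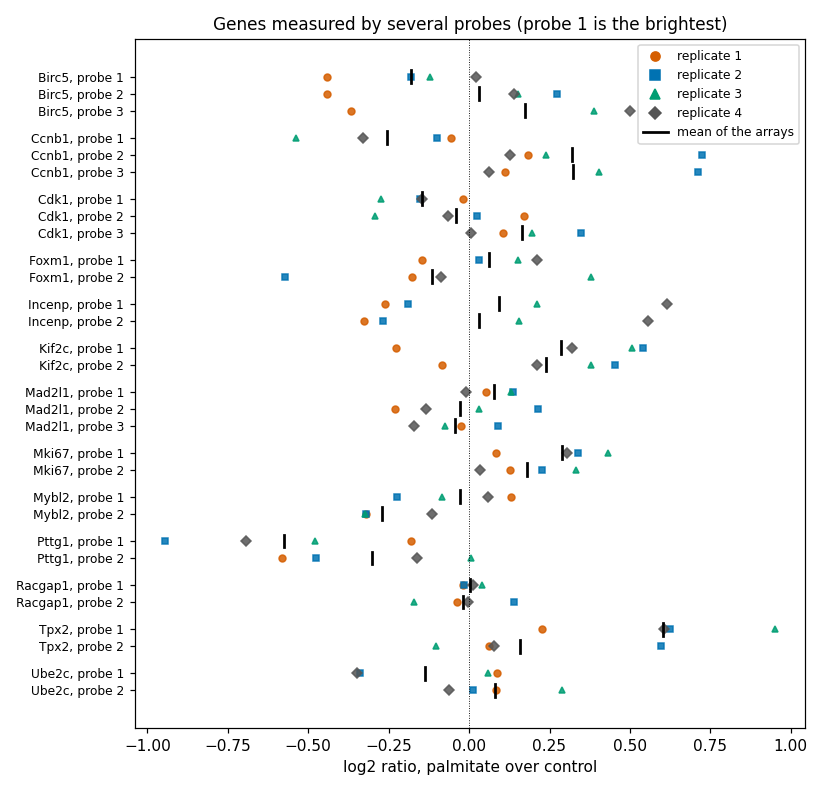
Log2 ratios, palmitate over control (x axis) for each tested probe (y axis) of the 13 genes with several probes, with a point for each array and a bar for the mean over the arrays measured. The brightest probe of Ccnb1 lay below 0 and its other probes above 0 on all 4 arrays, while both probes of Kif2c, of Mki67 and of Pttg1 had means on 1 side.

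On replicate 1 the members had a mean absolute ratio of 0.12, against 0.30, 0.34 and 0.24 on replicates 2, 3 and 4, and 31 of the 50 were below 0, against 20, 18 and 23. These values were not taken over all genes on each array, so they cannot be read as particular to the members. The median on replicate 1 was -0.019 over the members and -0.017 over all tested genes. Over the 50 genes, which are not independent replicates, replicate 1 correlated with the mean of the other arrays at r = 0.16, and pairs of replicates 2 to 4 at 0.69 to 0.77. Tpx2, Kif4, Kif11 and Hmmr were above 0 and Pttg1 and Espl1 below 0 on replicate 1 as on the others, whereas Ccna2, Kif23, Kif2c, Plk4 and Ttk were on the opposite side there.

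**Figure D5:**
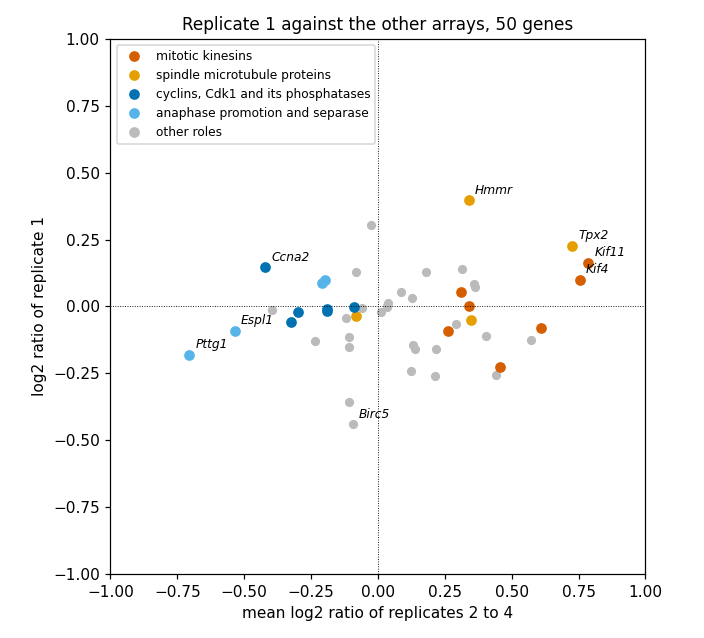
Log2 ratio between palmitate and control on replicate 1 (y axis) against the mean of replicates 2 to 4 (x axis) for the 50 genes, coloured by role. The kinesins lay to the right and the cyclin and anaphase genes to the left (Cdk1, Cdc25c and Cdc20 above 0 under median centring, Ccnb1 in the mean of its probes), but along the y axis both groups were spread around 0.

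The ratio of a member also varied with features that its choice did not use. Over the 50 genes the mean ratio correlated with the log10 genomic span of the gene at r = 0.51 (Spearman rho = 0.52), against 0.17 (0.17) over the 13712 tested genes. With the mean log2 signal of the probe it correlated at -0.38 (rho = -0.40), against -0.09 (-0.11) over all genes. These are descriptions over genes that share 4 arrays, and their part in the results was not tested.

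Other genes of the cell cycle were listed apart from the 50. Of 110 other mitotic genes 56 were below 0 and 54 above, with a median of -0.0084, and 11 were lower and 11 higher at an unadjusted p under 0.05 (13.3% and 10.8% of all genes). Anapc11, the RING subunit of the anaphase-promoting complex, had the lowest ratio of those named, at -0.62, -1.21, -0.65 and -0.99 (mean -0.87 ± 0.29, adjusted p = 0.118), and Cks2, a small partner of Cdk1, was at 0.32, 1.09, 0.77 and 1.26 (mean 0.86 ± 0.41, adjusted p = 0.118). Each kept its side on every array, replicate 1 included. Tuba1b, an alpha-tubulin, averaged 0.69 ± 0.27, and H2ax, a histone variant, -0.83 ± 0.42. Of 59 genes of DNA replication and G1/S 37 were below 0, against 49.8% of all tested genes, with 10 lower and 5 higher at that p and a median of -0.050. The sliding clamp Pcna averaged -0.44 ± 0.19 and the replication factor Rfc1 -0.32 ± 0.11, against 0.41 ± 0.19 for Gins4 and 0.44 ± 0.27 for Mcm4, which belong to the replicative helicase. Of 24 tested cell cycle inhibitors and p53 targets 12 were below 0 and 12 above, with 3 lower and 3 higher at that p, among them Cdkn2d at -0.38 ± 0.096, Cdkn1c at -0.30 ± 0.19, Ccng1 at 0.62 ± 0.33 and Btg1 at 0.36 ± 0.11. In these lists too 0 genes passed the adjusted p with 4 arrays. Without replicate 1, 9 lower and 11 higher of the other mitotic genes passed it, 3 and 7 of the replication genes, and 3 and 5 of the inhibitors, against 9.84% lower and 8.76% higher of all genes.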

How the data were processed

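Total RNA (1000 ng) of each culture was labelled, and the authors extracted spot values by Agilent Feature Extraction 10.7.3.1, as named in the submitters' processing notes. The files hold no mean signals, so the deposited median intensity of each spot and of its surroundings, uncorrected, was the starting point. Feature Extraction also gave the authors a processed intensity (background-subtracted and dye-normalized). A deposited column has the log10 ratio of both processed channels, and the deposited series table holds log2 ratios, which were checked against the processed intensity as palmitate over control. The flags for spots above background, saturated or outlying are yes or no values deposited by the authors. Normexp (offset 50) corrected the background and loess within each array the dyes in limma 3.58.1 (R 4.3.3, statmod 1.5.0). Channel signals were set on 1 scale by Aquantile. Spots of a probe were averaged, and a probe was tested where 1 channel or both had it well above background on all 4 arrays (24169 of 39429 probes). The mean log2 ratio of a probe was set against 0 by limma's moderated test (two-sided) with Benjamini-Hochberg adjustment over all tested probes, and pairing follows the array. The labels call the 4 arrays biological replicates, and their number limits the precision. Probes were named through RefSeq accessions (26055 probes).

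The 50 members and the gene lists were chosen with earlier results of these data known. Named genes follow a rule: all members at an unadjusted p under 0.05, the highest and lowest 8, the 5 widest spreads, the ends of each role, members whose probes differ in sign, and up to 4 genes of each other list. Other members were named for completeness. The alternatives changed the signals, background correction, dye normalization, filters, test, pairing, variance model, choice of probe, source table and replicates.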

Additional observations from a re-analysis of the deposited data

Results flagged for a closer look

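Ncapg, a condensin I subunit, had a log2 ratio of palmitate over control of 0.127 on replicate 2 and of 0.013, -0.0049 and -0.0090 on replicates 1, 3 and 4. The gap between replicate 2 and the nearest array was 0.839 of the whole range, past Dixon's critical value for 4 samples. Chance alone passes this value in about 1 of 20 groups, and 50 genes and 15 medians of gene groups were examined.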

How the results depend on the processing

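The count of members past the adjusted p and the fold was 0 lower and 0 higher in each alternative with 4 arrays except without dye normalization, where 48 were higher, as were 20322 of all 24169 tested probes. There the median of all tested probes lay at 0.99 and under median centring at 0.18 (shifts of 0.98 and 0.17 from loess). Counts below 0 and medians of the members are relative to these shifts. The p-values, in contrast, test ratios that keep the shift against 0. Under median centring 0 members were lower and 3 higher at an unadjusted p under 0.05 (5 and 10 with loess), 10 of 50 were below 0 (20 with loess) and the median was 0.184. Without dye normalization the counts were 0 and 48, with 10 below 0 and a median of 0.184. No share of all genes was counted at an unadjusted p in the alternatives, so counts of members at that p have no background here. The members lower at an unadjusted p numbered 1 with the processed signals, 1 with the deposited log2 ratios, 2 with the methods' t-test, 2 with an intensity trend and robust prior, and 3 with the coefficient of variation under 50%. That limit left 47 members, of which Pttg1 (lower) and Kif11, Kif4 and Tpx2 (higher) passed the adjusted p. The limit itself is set on the arrays that are tested. With no replicate block 3 members were lower and 9 higher at an unadjusted p, and leaving out the pairing changed no call of a member. Over all probes, 13 were lower and 16 higher past the threshold without the block, 2 and 1 in the methods' t-test and 0 in the paired fit, where 2682 and 2601 had an unadjusted p under 0.05. The mean of all probes changed the sign of 3 members, among them Ccnb1 at 0.1284, and left 21 members below 0. Without 1 array, members called lower numbered 0 to 1 and higher 0 to 3. Those at an unadjusted p numbered 1 to 7 lower and 4 to 17 higher, with no share of all genes counted beside them. Members below 0 numbered 19 to 25, and the median was 0.0043 to 0.0616. Of the fits without 1 array, only that without replicate 1 made calls. The cause of these differences was not tested. An exact sign-flip test over 4 arrays cannot go below a two-sided p of 0.125.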

Other observations

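Markers of differentiating muscle were read beside the mitotic genes, since myoblasts leave the cell cycle when they differentiate. Of 9 such markers on the array 7 were tested, and none passed the adjusted p. Myog, the transcription factor of early differentiation, had log2 ratios of palmitate over control of 0.29, 0.50, 0.23 and 0.19 (mean 0.30 ± 0.14, SD, n = 4 arrays, unadjusted p = 0.0124 by limma). Myh3, the embryonic myosin heavy chain, averaged 0.32 ± 0.18 and the slow troponin Tnnt1 0.31 ± 0.20, both above 0 on all 4 arrays, as were 15.6% of all genes. Tnnc1 averaged -0.13 ± 0.33, Acta1 -0.078 ± 0.20, Mymk -0.059 ± 0.22 and Tnni1 0.085 ± 0.078, and Ckm and Mylpf were above background on too few arrays to be tested. At an unadjusted p under 0.05 by limma, 3 of these 7 were higher and 0 lower, against 10.8% and 13.3% of all genes. Of the 7 myoblast markers 2 were higher and 0 lower at that p. The median was 0.16 over the myoblast markers and 0.085 over those of differentiating muscle. Among the myoblast markers Myod1 averaged 0.24 ± 0.20 and Desmin -0.13 ± 0.36.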
